A study of Mus musculus with 6 samples.

Results

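The genes described here build and run the mitotic spindle, and the motors described beside them carry cargo along microtubules outside mitosis. They were chosen by symbol from the authors' deposited table: every kinesin heavy chain listed as Kif and a number, the centromere proteins, the Bub and Mad checkpoint genes, the Aurora and Polo kinases, the genes listed as Cdca and a number, the Ndc80 complex, and single genes such as Cdc20, Tpx2, Top2a and Mki67. This gave 81 of the table's 29209 rows, and 79 of these are among the 18543 rows with an adjusted p, which form the tested set. The kinesins listed as Kif make up 35 of the 81, and were divided by textbook roles into 10 that work in mitosis, 15 that transport cargo and 10 left unclassed. The kinesin Cenpe was kept with the outer kinetochore.

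RNA came from tumours growing under the skin of NCr nude mice, which lack a thymus. The tumours arose from injected spleen cells of mir-155LSLtTA mice that had developed disease. In these cells the microRNA miR-155 is expressed through tTA, a transcription activator that doxycycline (DOX) switches off. In 3 samples the mice ate chow with DOX at 2.3 mg/kg for 16 hours before harvest, and 3 samples came from mice without DOX. Both groups carry the transgene, and no tumour without it received DOX, so an effect of the drug and an effect of miR-155 loss cannot be told apart. Which cell type first activated the transgene is not stated in the labels. The tumours were dispersed to single cells and red cells were lysed before RNA extraction, so host cells can be present. Nothing in the labels places the samples of 1 group in separate animals. The p-values therefore cover only the spread between these samples, and that spread may be technical.

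At mitosis, chromosomes attach to spindle microtubules through kinetochores, protein plates built in layers on the centromere. The spindle checkpoint holds back the anaphase-promoting complex until every kinetochore is attached, Aurora B and its partners correct faulty attachments, and mitotic kinesins slide, shorten or crosslink microtubules. Most of these genes are transcribed mainly in G2 and M phase, under MuvB complexes with B-MYB and FOXM1, which is why they serve as proliferation markers in tumours. Transport kinesins such as conventional kinesin (Kif5) and kinesin-II (Kif3) carry vesicles, mitochondria and cilium components in dividing and resting cells alike.

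The spindle and kinetochore genes leaned toward lower expression with DOX, and the transport kinesins toward higher. Of 79 tested members, 15 fell and 2 rose at the threshold of the authors' deposited table, an adjusted p under 0.05. All 15 that fell are mitotic or Cdca genes, and both that rose, Kif21b and Kif13b, are transport kinesins. The falls amount to 19.0% of the tested members, against 5.61% of all tested rows of the authors' deposited table. The rises amount to 2.53% of them, against 5.72% of all tested rows, and in either direction 21.5% of the members were called against 11.3%. At an unadjusted p under 0.05, 25 members (31.6%) were lower, against 10.4% of all tested rows, and 6 (7.59%) were higher, against 11.9%, in the authors' deposited table.

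The sources used here do not say which group is the numerator of the deposited fold. It was read as DOX over no DOX, and every direction given here is reversed if the division was the other way round. The median log2 fold of all 15784 tested rows with a finite fold in the authors' deposited table is 0.17, so that a gene at 0 lies slightly below the typical row. No member lies between 0 and that median, so no direction depends on which of them is taken as the centre. The members' own median is -0.45, or -0.62 relative to the table. Among the 55 tested members other than the transport and unclassed kinesins, 46 have a fold below 1, 15 fell, 0 rose and the median is -0.76 in the authors' deposited table. For all tested rows, 40.6% have a fold below 1.

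Some markers of other cell types were called in the same comparison. All 12 macrophage markers have a fold above 1 in the authors' deposited table, with a median of 2.02 on the log2 scale, and 2 of them rose (16.7%), Csf1r (2.16) and Mertk (3.30). All 9 fibroblast markers are above 1 with a median of 1.95, and 2 rose (22.2%) in the authors' deposited table, Postn (3.74) and Pdgfra (1.95). Of 10 markers of the B lineage, Ebf1 (1.61), Cd72 (1.24) and Blnk (1.04) rose and Igll1 (-1.14) fell in the authors' deposited table, and the median is 0.49. The 5 tested T cell markers hold no call and have a median of 0.82, and of 6 endothelial markers, with a median of 1.28, Eng fell (-1.04) in the authors' deposited table. These counts stand against 5.72% of all tested rows that rose and 5.61% that fell, and rest on few genes. The table gives no level for any gene, so the presence of these cell types could not be read from it. In bulk RNA, fewer dividing tumour cells and less mitotic RNA per cell cannot be told apart, and the part of other cell types in the results below was not tested.

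Many promoters of the mitotic members hold the same short motif. Sequences from RefSeq (GRCm38.p6), from 250 bases before to 50 after the annotated transcript start, were available for 70 of the 81 members, and a gene with several annotated starts was counted once for a match at any of them. They were searched on both strands for the CHR (TTTGAA, or TTCAAA on the other strand), through which MuvB complexes bind late cell cycle genes, and for the CCAAT box (CCAAT or ATTGG), the site of NF-Y. In the stretches printed here no CHR overlaps a CCAAT box. The stretches below are the 110 bases before the transcript start, 5' to 3' on the gene's strand, with both motifs in capitals. The first 7 are mitotic members with a CHR in that stretch, and the last 2 are the transport kinesins of kinesin-II, shown for contrast. These 9 were chosen after the motif positions had been seen.

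Cdc20, chr4:118437344-118437453, minus strand: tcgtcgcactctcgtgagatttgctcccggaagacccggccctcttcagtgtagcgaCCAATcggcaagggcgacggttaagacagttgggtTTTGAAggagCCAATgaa
Cdca5, chr19:6084987-6085096, plus strand: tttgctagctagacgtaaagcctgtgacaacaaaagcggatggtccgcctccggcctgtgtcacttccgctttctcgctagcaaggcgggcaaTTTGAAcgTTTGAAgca
Bub3, chr7:131560260-131560369, plus strand: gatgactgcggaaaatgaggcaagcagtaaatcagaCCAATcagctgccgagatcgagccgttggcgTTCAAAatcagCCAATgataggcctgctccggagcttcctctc
Cdca4, chr12:112829390-112829499, minus strand: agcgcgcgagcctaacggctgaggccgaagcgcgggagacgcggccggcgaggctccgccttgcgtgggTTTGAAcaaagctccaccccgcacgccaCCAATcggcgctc
Kif22, chr7:127042421-127042530, minus strand: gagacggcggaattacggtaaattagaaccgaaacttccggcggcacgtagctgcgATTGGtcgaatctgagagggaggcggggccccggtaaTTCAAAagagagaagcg
Kif11, chr19:37376272-37376381, plus strand: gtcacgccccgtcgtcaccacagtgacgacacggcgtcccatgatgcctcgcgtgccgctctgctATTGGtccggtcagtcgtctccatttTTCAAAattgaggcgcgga
Top2a, chr11:99024190-99024299, minus strand: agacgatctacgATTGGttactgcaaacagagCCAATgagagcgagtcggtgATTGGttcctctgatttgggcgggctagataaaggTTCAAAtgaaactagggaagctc
Kif3a, chr11:53567259-53567368, plus strand: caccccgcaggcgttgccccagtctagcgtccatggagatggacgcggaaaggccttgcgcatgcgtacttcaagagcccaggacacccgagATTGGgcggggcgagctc
Kif3b, chr2:153291306-153291415, plus strand: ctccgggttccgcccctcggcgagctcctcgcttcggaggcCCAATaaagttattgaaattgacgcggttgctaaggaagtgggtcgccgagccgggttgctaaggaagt

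In Cdc20, Kif22, Kif11 and Top2a the CHR begins 17 to 23 bases before the annotated start, and Cdca5 holds 2 copies there, at -17 and -9. Bub3 and Cdca4 have it farther upstream, at -43 and -41. Mitotic members are here all members but the transport and unclassed kinesins. They include 5 Cdca and Cenp genes that act outside the spindle and kinetochore, 4 of which fell. Of the 50 mitotic members with a promoter entry, 27 hold a CHR in the whole window, or 54.0%, against 14.8% of tested genes and 20.2% of all promoters in the table of sequences. Within 50 bases of the start, a narrower window set after the positions had been seen, it stands in 23 of the 50 (46.0%) against 3.83% of tested genes and 5.72% of all promoters. The CCAAT box is in 68.0% of the mitotic members, 42.5% of tested genes and 41.1% of all promoters. Both motifs are present in 46.0%, 7.19% and 8.97% of them.

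Kinesin promoters differ by class in the same way. A CHR is in 7 of 9 mitotic kinesins with an entry and in 1 of 11 transport kinesins, Kif1a. A CCAAT box is in 66.7% and 27.3% of them. The inner kinetochore genes hold the CHR less, in 3 of 12, but 7 of the 12 carry the E2F-like motif GCGGGAA (or TTCCCGC on the other strand), against 9.17% of tested genes, 5.29% of all promoters and 16.0% of all mitotic members. These shares were not tested, and a match is a description of letters, not a binding site.

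**Figure D1:**
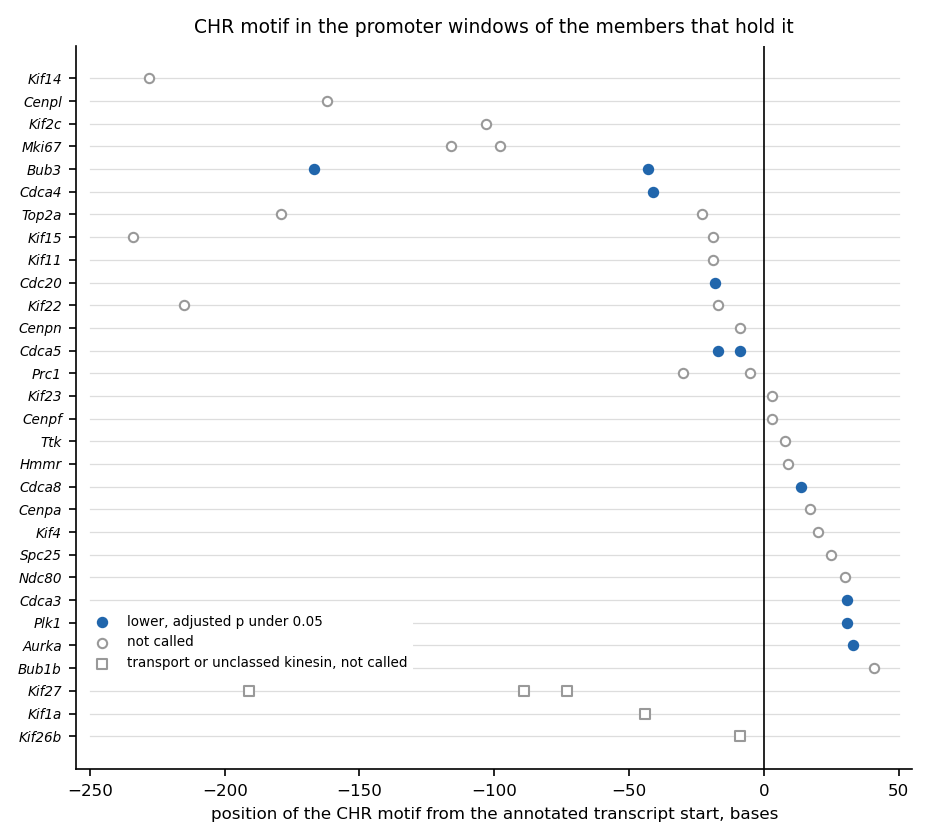
Position of each CHR motif relative to the annotated transcript start (x axis, bases, negative values upstream) for the 30 members whose promoter window holds one (y axis, 1 row per gene; several symbols in a row are several copies). Filled circles are members that fell, open circles mitotic members that were not called, and squares 3 transport or unclassed kinesins; in 23 of the 27 mitotic members a copy lies within 50 bases of the start.

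Of the 11 members that fell and have a promoter entry, 8 hold a CHR within 50 bases of the start, and the 2 members that rose have no entry. The 23 mitotic members with such a CHR and a finite fold have a median log2 fold of -0.76, with 8 lower. The 26 without it have a median of -0.42, with 3 lower. The 2 sets also differ in median transcript length, 2425 bases with the CHR and 3227 without. Fold went with transcript length in the table as a whole, as given below, and the part of length here was not tested. Across all tested genes the medians with and without it are -0.13 (387 genes) and 0.01 (9796 genes). In the authors' deposited table this motif stands in 5.19% of genes that fell and 5.04% of those that rose, beside 3.83% of tested genes. Anywhere in the window, a CHR is in 15.9% of genes that fell and 17.6% of those that rose, beside 14.8% of tested genes. A CHR near the start is thus present in most of the members that fell and have an entry. It is absent from most of the genes that fell, or rose, in the table as a whole.

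The mitotic kinases and the chromosomal passenger complex had the most falls of the spindle groups. Of 8 tested genes 5 fell and 7 have a fold below 1, with a median of -1.18 (log2 fold) in the authors' deposited table. The falls are 62.5% of this group against 5.61% of all tested rows, and the folds below 1 are 87.5% against 40.6%. Plk1, the Polo-like kinase that drives centrosome maturation and mitotic entry, was 3.04-fold lower (log2 fold -1.61, adjusted p = 0.000499) in the authors' deposited table. Aurka, the Aurora kinase of the spindle poles, was 2.95-fold lower (-1.56, adjusted p = 0.00907) in the authors' deposited table. Aurkb, the kinase of the passenger complex that releases faulty attachments, was 2.96-fold lower (-1.57, adjusted p = 0.000372) in the authors' deposited table. Its partners are Incenp, the scaffold, Cdca8, the borealin subunit, and Birc5, survivin, and all 4 genes of the complex thus have a fold below 1. Incenp was 2.11-fold lower (-1.08, adjusted p = 0.0304) and Cdca8 2.42-fold lower (-1.28, adjusted p = 0.0398) in the authors' deposited table. Birc5 missed the threshold at a log2 fold of -0.98 (adjusted p = 0.0621) in the authors' deposited table. Nek2, a kinase of centrosome separation, had a log2 fold of -0.78 (adjusted p = 0.233) in the authors' deposited table. The exception is Aurkc, the Aurora kinase of germ cells, at 2.08 (adjusted p = 0.868) in the authors' deposited table. Aurka, Plk1 and Cdca8 each hold a CHR just downstream of the start, at positions 33, 31 and 14.

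All 7 tested genes of the spindle checkpoint and its target have a fold below 1, against 40.6% of all tested rows. Of these, 2 fell (28.6%, against 5.61% of all tested rows). Cdc20, which activates the anaphase-promoting complex and is the protein the checkpoint holds back, was 2.56-fold lower (log2 fold -1.36, adjusted p = 0.0315) in the authors' deposited table. Bub3, which brings the Bub proteins to the kinetochore, was 2.09-fold lower (-1.07, adjusted p = 0.0309) in the authors' deposited table. These are 2 of the promoters printed above with a CHR flanked by CCAAT boxes. The checkpoint kinases and inhibitors themselves lie nearer to 1. Bub1b, the BubR1 protein that inhibits Cdc20, had a log2 fold of -0.76 (adjusted p = 0.112), and Mad2l1, the Mad2 protein that does so with it, -0.69 (adjusted p = 0.402) in the authors' deposited table. Ttk, the Mps1 kinase that starts checkpoint signalling, stood at -0.52, Mad1l1, the kinetochore anchor of Mad2, at -0.45 and the kinase Bub1 at -0.33 in the authors' deposited table. The group's median is -0.69.

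Of the 4 spindle assembly and midzone genes, Tpx2 fell (25.0%, on 1 gene, against 5.61% of all tested rows). It encodes the factor that activates Aurora A on spindle microtubules, and was 2.25-fold lower (log2 fold -1.17, adjusted p = 0.0144) in the authors' deposited table. Prc1, which crosslinks microtubules of the midzone, had -0.48 (adjusted p = 0.482), Nusap1, a microtubule-bundling protein, -0.25 (adjusted p = 0.746) and Hmmr, a spindle pole protein, 0.31 (adjusted p = 1) in the authors' deposited table. Among the 4 mitotic chromosome genes, Cdca5 fell (likewise 25.0%, on 1 gene). It encodes sororin, which protects cohesin between sister chromatids, and was 3.60-fold lower (-1.85, adjusted p = 0.000749) in the authors' deposited table. Top2a, the topoisomerase that untangles sister DNA, missed the threshold at -0.98 (adjusted p = 0.0655), as did Cdca2, the phosphatase partner Repo-Man, at -1.06 (adjusted p = 0.0694), in the authors' deposited table. Mki67, the proliferation marker that coats mitotic chromosomes, had a log2 fold of 0.72 (adjusted p = 0.969) in the authors' deposited table. The fold of Mki67 lies above 1 where those of Top2a, Plk1 and Aurkb lie below it, but it was not distinguished from 1.

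At the centromere, all 12 tested inner kinetochore genes chosen by symbol have a fold below 1, with a median log2 fold of -0.67. For all tested rows 40.6% have a fold below 1. Of the 12, 1 fell (8.33%), near the 5.61% of all tested rows. Of the inner kinetochore genes listed under other names, given below, Cenpc (0.24) and Cenpu (0.43) have a fold above 1. Cenps, Cenpx and Cenpw have a fold below 1. Cenph, a subunit of the constitutive centromere network, was 4.38-fold lower (-2.13, adjusted p = 0.0246) in the authors' deposited table. Its close neighbours in that network differ in size, with Cenpi at -1.35 (adjusted p = 0.0703) and Cenpk at -0.17 (adjusted p = 1) in the authors' deposited table. Cenpn, which reads the centromeric nucleosome, had -1.02 (adjusted p = 0.0805), and its partner Cenpl -0.18 (adjusted p = 0.885) in the authors' deposited table. Cenpa, the histone variant that defines the centromere, had -0.71 (adjusted p = 0.504), and Cenpb, which binds centromeric satellite DNA, -0.77 (adjusted p = 0.205) in the authors' deposited table. The remaining network members Cenpm, Cenpt, Cenpp, Cenpo and Cenpq lie between -0.87 and -0.01 in the authors' deposited table. At an unadjusted p under 0.05, 4 of the 12 were lower (33.3%, against 10.4% of all tested rows). The shared direction of these 12 thus rests mostly on genes that miss the threshold one by one.

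The outer kinetochore was the only spindle group with a median above 0, at 0.67. None of its 6 genes was called, against 11.3% of all tested rows. Among the 4 subunits of the Ndc80 complex, the main microtubule coupler, the folds diverge. Nuf2 had a log2 fold of -0.94 (adjusted p = 0.0832) and Spc24 -0.97 (adjusted p = 0.399), while Ndc80 had 0.22 (adjusted p = 1) and Spc25 1.13 (adjusted p = 0.941), in the authors' deposited table. Cenpe, the kinesin that moves chromosomes to the spindle equator, had 1.44 (adjusted p = 0.734), and Cenpf, a large protein of the kinetochore corona, 1.86 (adjusted p = 0.583) in the authors' deposited table. Only Nuf2 of the 6 passes 0.05 before adjustment in the authors' deposited table, so the folds above 1 in this group are not distinguished from 1.

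Of the 5 Cdca and Cenp genes that act outside these structures 4 fell (80.0%, against 5.61% of all tested rows). The largest fall of all members was that of Cdca7. Cdca7, a partner of the chromatin remodeller HELLS, was 7.72-fold lower (log2 fold -2.95, adjusted p = 0.0209) in the authors' deposited table. Its relative Cdca7l was 4.35-fold lower (-2.12) with the smallest adjusted p of all members, 5.45e-05, in the authors' deposited table, and shares 19.7% of its exon bases with Dnah11 on the opposite strand in GENCODE. Cdca3, a ubiquitin ligase component of mitotic entry, was 3.03-fold lower (-1.60, adjusted p = 0.000249) in the authors' deposited table. Cdca4, a transcriptional regulator, was 2.18-fold lower (-1.12, adjusted p = 0.0383) in the authors' deposited table. These 4 share a name given for their cell cycle association rather than a place in the spindle. Cenpj, which lengthens centrioles and is no kinetochore protein, had 0.62 (adjusted p = 0.624) in the authors' deposited table.

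**Figure D2:**
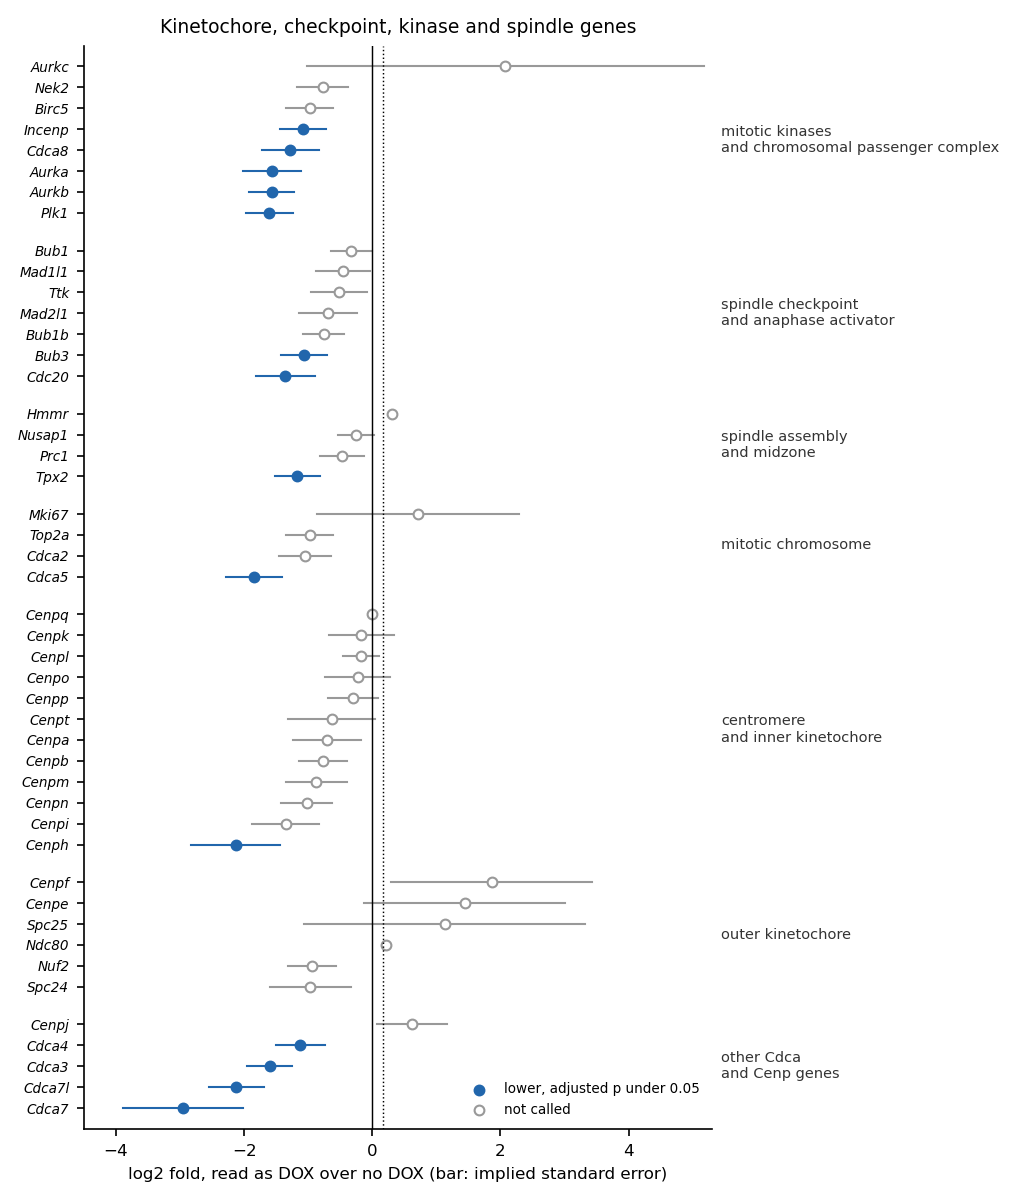
Log2 fold in the authors' deposited table, read as DOX over no DOX (x axis), of the 46 tested members not listed as Kif, grouped by role (y axis, 1 row per gene). The kinesin Cenpe is among them, with the outer kinetochore. Bars are the standard error implied by fold and p where it could be computed, the solid line is 0 and the dotted line the median of all tested rows, 0.17; the 14 filled points are genes that fell, and the wide bars belong to folds above 1 such as Aurkc, Spc25 and Cenpf.

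Mitotic and transport kinesins lie on opposite sides of the table's median. Of the 10 mitotic kinesins listed, 9 were tested, 1 fell, 8 have a fold below 1 and the median log2 fold is -0.45 in the authors' deposited table. Of 15 tested transport kinesins 0 fell, 2 rose and 12 are above 1, and the 13 with a finite fold have a median of 0.88 in the authors' deposited table. Relative to the table the medians are -0.62 and 0.71. Single calls are few on both sides: 11.1% of the mitotic kinesins fell against 5.61% of all tested rows, and 13.3% of the transport kinesins rose against 5.72%. Before adjustment, at p under 0.05, 3 mitotic kinesins were lower and 0 higher, and 4 transport kinesins higher and 0 lower, in the authors' deposited table. The difference between the classes was not tested.

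Kif20a was the mitotic kinesin that fell. It moves Aurora B to the midzone for cytokinesis, and was 2.53-fold lower (log2 fold -1.34, adjusted p = 0.00487) in the authors' deposited table. Its exons share 29.3% of their bases with Cdc23 on the opposite strand in GENCODE, and no source used here says whether the authors' counting used strand. Cdc23 itself had 0.21 (adjusted p = 1) in the authors' deposited table. Next came Kif22, which pushes chromosome arms away from the poles, at -1.02 (adjusted p = 0.0707), and Kif2c, a depolymerase that corrects attachments, at -0.97 (adjusted p = 0.0862) in the authors' deposited table. The motors that keep the spindle bipolar, Kif11 and Kif15, had -0.45 (adjusted p = 0.520) and -0.52 (adjusted p = 0.400) in the authors' deposited table. The cytokinesis motors Kif23 and Kif14 had -0.36 (adjusted p = 0.614) and -0.40 (adjusted p = 0.648), and the chromokinesin Kif4 -0.45 (adjusted p = 0.562), in the authors' deposited table. Kif18a, which damps chromosome movement at the equator, is the only one above 1, at 1.07 (adjusted p = 0.725), and Kif2b, a depolymerase, was not tested in the authors' deposited table. The decrease in this class thus passed for the Aurora B carrier alone, while Kif11 with a CHR and a CCAAT box like those of Cdc20 was not called.

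Among transport kinesins, Kif21b, a motor of lymphocytes and neurons that also restrains microtubule growth, was 2.69-fold higher (log2 fold 1.43, adjusted p = 0.000656) in the authors' deposited table. Kif13b, which carries membrane proteins to the cell cortex, was 2.79-fold higher (1.48, adjusted p = 0.00233) in the authors' deposited table. Their relatives were not called. Kif13a, an endosome motor, had 0.36 (adjusted p = 0.990), and the ratio of Kif21a is listed as Inf (adjusted p = 0.937), so no fold is given, in the authors' deposited table. Of the kinesin-II motors, Kif3a had 1.39 (adjusted p = 0.0744), its obligate partner Kif3b -0.09 (adjusted p = 1) and the alternative partner Kif3c 0.36 (adjusted p = 0.790) in the authors' deposited table. The 2 partners Kif3a and Kif3b, which form 1 motor, thus had unlike folds, and neither was called.

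Of the conventional kinesins, Kif5b, the form found in most tissues, had a log2 fold of 0.88 (adjusted p = 0.108) in the authors' deposited table. The neuronal forms Kif5a and Kif5c had 2.67 (adjusted p = 0.789) and -0.67 (adjusted p = 1) in the authors' deposited table, with unadjusted p-values of 0.412 and 0.809. The vesicle and mitochondrion motors Kif1b and Kif1c had 0.93 (adjusted p = 0.236) and -0.73 (adjusted p = 0.258), and Kif1a has a ratio of Inf (adjusted p = 0.474), in the authors' deposited table. Kif16b, an early endosome motor, had 0.37 (adjusted p = 0.899) and Kif17, a motor of dendrites and cilia, 0.89 (adjusted p = 1) in the authors' deposited table. Kif1c, Kif5c and Kif3b are the 3 transport kinesins below 1, so the folds of this class lie on both sides of 1.

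Kif17 stands in the table a further time, as MmKIF17, and that row rose with a log2 fold of 1.96 (adjusted p = 0.00912) in the authors' deposited table. Kif1b is also listed as KIF1B, at 1.79 (adjusted p = 0.495), and Cenpa as Cenp-a, at -0.07 (adjusted p = 0.936), in the authors' deposited table. These rows fall outside the choice by symbol and were named after their values were seen. Which reads went to each row of a pair is not known, so the values of Kif17, Kif1b and Cenpa are uncertain. Of the mitotic kinesins under older names, Kif18b (listed as 3000004C01Rik) had -1.11 (adjusted p = 0.0704) and Kif20b (Mphosph1) 1.91 (adjusted p = 0.243) in the authors' deposited table. Cenpc, the inner kinetochore scaffold, listed as Cenpc1, had 0.24 (adjusted p = 1) in the authors' deposited table. The histone-fold partners Cenps (Apitd1) and Cenpx (Stra13) had -1.16 (adjusted p = 0.155) and -1.32 (adjusted p = 0.208), and Cenpw (2610036L11Rik) -0.49 (adjusted p = 1), in the authors' deposited table. Cenpu (Mlf1ip) had 0.43 and Cenpv (Prr6) -0.81, both at an adjusted p of 1 in the authors' deposited table, so these older names added no call.

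The unclassed kinesins hold no call among 9 tested, beside 11.3% of all tested rows. Of the 9, 8 are above 1, among them Kif6 and Kif7 with a ratio of Inf. A fold below 1 is held by 11.1% of the 9, against 40.6% of all tested rows, and none was distinguished from 1. The cilium depolymerase Kif19a had a log2 fold of 1.98 (adjusted p = 0.0750), the centriole depolymerase Kif24 0.92 (adjusted p = 0.116) and the atypical motor Kif26b 3.00 (adjusted p = 0.270) in the authors' deposited table. Kif9, Kif26a and Kif27 had 1.12, 1.10 and 0.45, with adjusted p-values of 0.615 and higher, in the authors' deposited table. Kif2a, a depolymerase used in mitosis as well as in neurons, is the one below 1, at -0.32 (adjusted p = 0.750), in the authors' deposited table. The ratios of Kif7, which acts in Hedgehog signalling at the cilium, and of Kif6 are listed as Inf (adjusted p = 0.829 and 1), and Kif12 was not tested, in the authors' deposited table. The median of the 7 finite folds is 1.10.

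**Figure D3:**
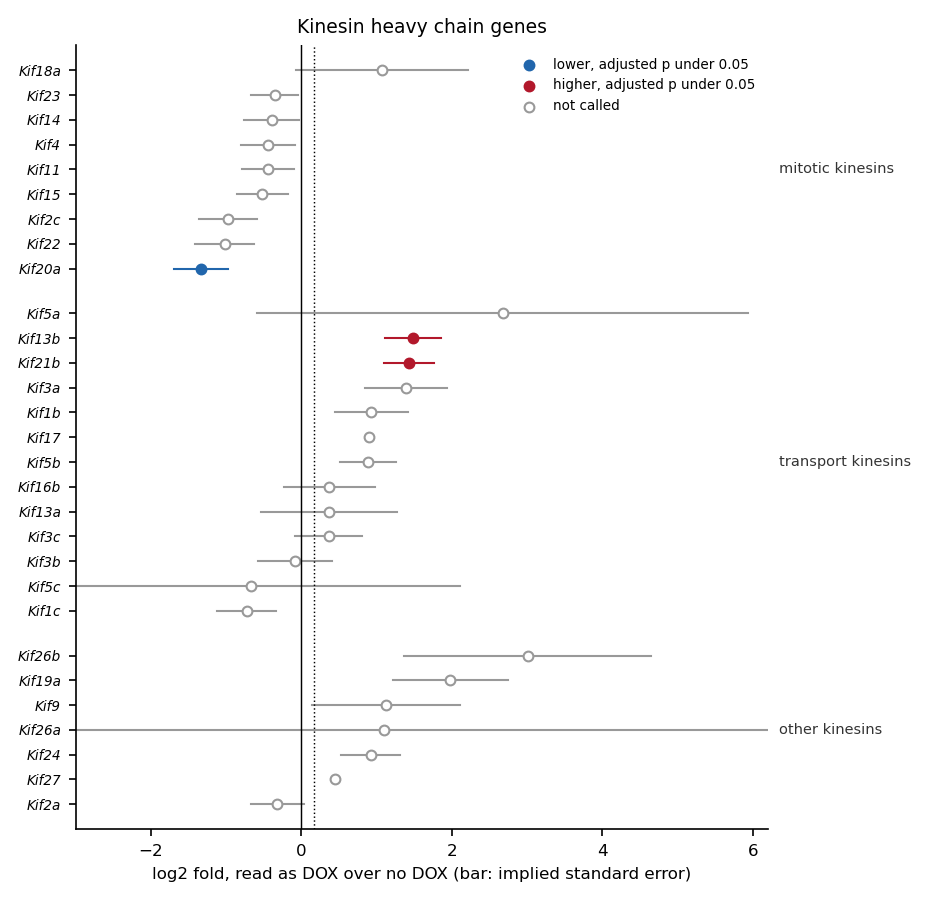
Log2 fold in the authors' deposited table, read as DOX over no DOX (x axis), of the 29 kinesins listed as Kif with a finite fold, in 3 classes (y axis, 1 row per gene). Bars are the standard error implied by fold and p where it could be computed, some cut by the axis, with lines at 0 and at the table's median of 0.17; Kif20a is the filled point below 0, and Kif21b and Kif13b are the filled points above it.

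Other genes of mitosis were counted from lists drawn up for this comparison. Of 15 genes of mitotic entry and its transcription factors 5 fell and 0 rose, with a median of -0.92 (log2 fold) in the authors' deposited table. They include the transcription factor genes Mybl2, which encodes B-MYB (-1.78, adjusted p = 0.000214), and Foxm1 (-0.92, adjusted p = 0.0371), the kinase gene Cdk1, listed as Cdc2a (-1.28, adjusted p = 0.00372), and the cyclin gene Ccna2 (-1.12, adjusted p = 0.0294), in the authors' deposited table. Cyclin B1 was the fifth. Of 17 further spindle and cytokinesis genes 6 fell and 0 rose, with a median of -0.69. Stmn1, a tubulin-sequestering protein (-1.95), Tacc3, which strengthens kinetochore fibres (-1.21), Espl1, the separase protease (-1.19), and Cit, the citron kinase of the midbody (-1.07), come first by p in the authors' deposited table.

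Of 7 condensin genes, whose products compact chromosomes, Ncapd2 (log2 fold -1.24, adjusted p = 0.00265) and Ncaph (-1.11, adjusted p = 0.0303) fell in the authors' deposited table, and the median is -0.37. Of 16 genes of the anaphase-promoting complex and its partners 3 fell, with a median of -0.41: the ubiquitin-conjugating enzymes Ube2s (-1.34) and Ube2c (-1.38) and the subunit Anapc5 (-1.13) in the authors' deposited table. Anapc5 is the only subunit of the complex among these 3. Of 17 other kinetochore genes 1 fell, Pmf1 of the Mis12 complex (-1.92, adjusted p = 4.30e-05), with a median of -0.34 in the authors' deposited table. Of 10 centriole genes 1 fell, Stil (-1.13), with a median of -0.00 in the authors' deposited table. These lists held 0 rises. Against 5.61% of all tested rows, the falls were 33.3% of the mitotic entry list, 35.3% of the further spindle list and 28.6% of the condensins. For the anaphase-promoting complex together with its partners they were 18.8%. For the other kinetochore and centriole genes they were 5.88% and 10%, on 1 gene each, which is near the share of all rows, and the centriole genes have 5 folds below 1 and 5 above.

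Of the partners of the microtubule motors, 10% of kinesin light chain and adaptor genes and 13.3% of dynein and dynactin genes were called. These shares are near the 11.3% of all tested rows called in either direction. Of 10 tested kinesin light chain and adaptor genes 1 rose (10%, against 5.72% of all tested rows), the adaptor gene Mapk8ip3 (1.23, adjusted p = 0.0159), in the authors' deposited table. The median of the 10 is 0.61, and 6 of them lie above the median of all tested rows and 4, all with a fold above 1, below it. Among 15 genes of dynein and dynactin, the motor that runs toward the minus end, Dync2h1 rose (2.09, adjusted p = 0.000331) and Dynll2 fell (-1.28, adjusted p = 0.0398), and the median is -0.22, in the authors' deposited table. Each call is 6.67% of that list, near the shares of all tested rows. Dync2h1 is the heavy chain of the cilium dynein, which returns the cargo that Kif3a and Kif3b bring in.

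Transport kinesins have longer transcripts than mitotic ones, and fold went with transcript length in the table as a whole. The median longest protein-coding transcript in GENCODE is 6684 bases for the transport kinesins and 3536 for the mitotic ones. The median log2 fold of all tested genes is -0.47 under 2000 bases, -0.03 from 2000 to 4000, 0.27 from 4000 to 6000 and 0.62 at 6000 and over, in the authors' deposited table. The 10 transport kinesins of 6000 bases and over have a median of 0.63, close to the value of all tested genes of that length. Among mitotic members, that is all but the transport and unclassed kinesins, the medians in the 4 bins are -0.92 (16 genes), -0.97 (25), -0.45 (9) and 0.72 (5), so they lie below those of all tested genes in the first 3 bins and not in the last. The 5 mitotic members of 6000 bases and over are Cenpf, Cenpe and Mki67, above 1, and Kif14 and Mad2l1, below 1.

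Across the 55 mitotic members with a finite fold, the log2 fold had a Spearman's rho of 0.298 with length and of -0.492 with the GC content of the same transcript. Across 12424 tested genes the values were 0.278 and -0.241. Within the 9 mitotic kinesins they were 0.267 and -0.700, and within the 13 transport kinesins 0.0824 and 0.242. Genes are not independent replicates and share the same libraries, and these values are descriptions. The part of length and GC in the difference between mitotic and transport kinesins was not tested. Shorter transport kinesins are few: Kif3a (3161 bases) and Kif17 (3453 bases) have log2 folds of 1.39 and 0.89, above those of the mitotic kinesins of like length other than Kif18a, and Kif3b (5635 bases) has -0.09, in the authors' deposited table. None of these 3 was called, and Kif17 has an unadjusted p of 0.906 in the authors' deposited table, so they do not separate length from class.

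**Figure D4:**
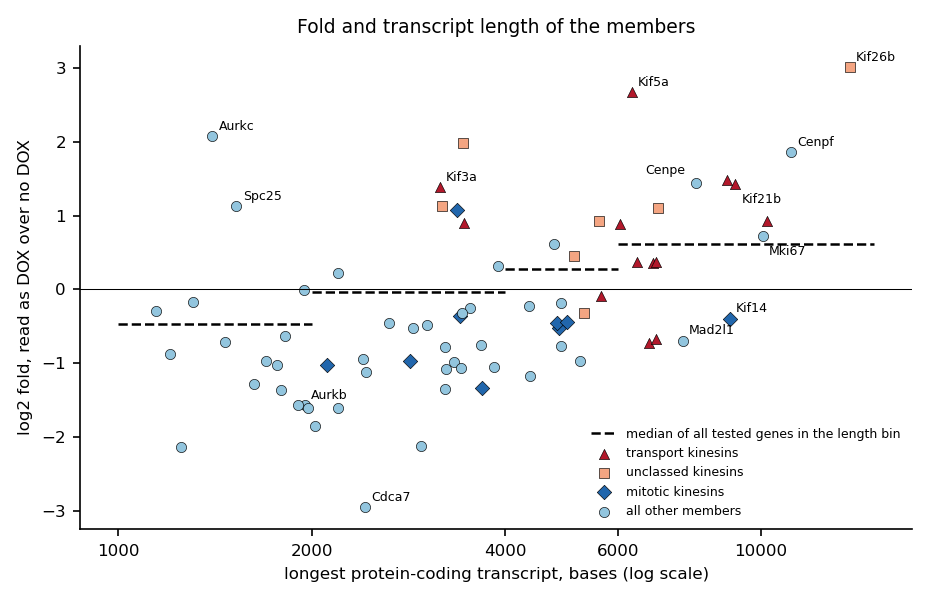
Log2 fold in the authors' deposited table (y axis) against the length of the longest protein-coding transcript (x axis, bases, log scale) for the 75 members with a finite fold. Dashed lines are the medians of all tested genes in 4 length bins, from -0.47 to 0.62; most mitotic members under 6000 bases lie below the line of their bin, and the transport kinesins of 6000 bases and over scatter around theirs.

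The fold and the unadjusted p together imply a standard error of the log2 fold (its size over the normal quantile of p, for p up to 0.9), which is not a measured spread and depends on the fold itself. Of 52 mitotic members with such a value, 37 are under 0.5, 9 from 0.5 to 1 and 6 at 1 and over. The 6 are Mki67, Aurkc, Kif18a, Cenpf, Cenpe and Spc25, and all 6 have a fold above 1, from 0.72 to 2.08 on the log2 scale in the authors' deposited table. Of the 46 under 1, 45 have a fold below 1 and 1, Cenpj, above. The split at 1 was chosen after seeing these values, and Ndc80 and Hmmr, above 1 in fold, and Cenpq, below 1, have no implied error because their p exceeds 0.9. Since the error is built from the fold, these counts are a description and not a relation between direction and precision. Over all rows, 77.0% of 4182 at 1 and over have a fold above 1, and 47.2% of 9748 rows under 1. The folds of Mki67, Cenpe and Cenpf do not place them on either side of 1. Of the 10 transport kinesins under 1, 8 are above 1 in fold, with a median log2 fold of 0.63.

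**Figure D5:**
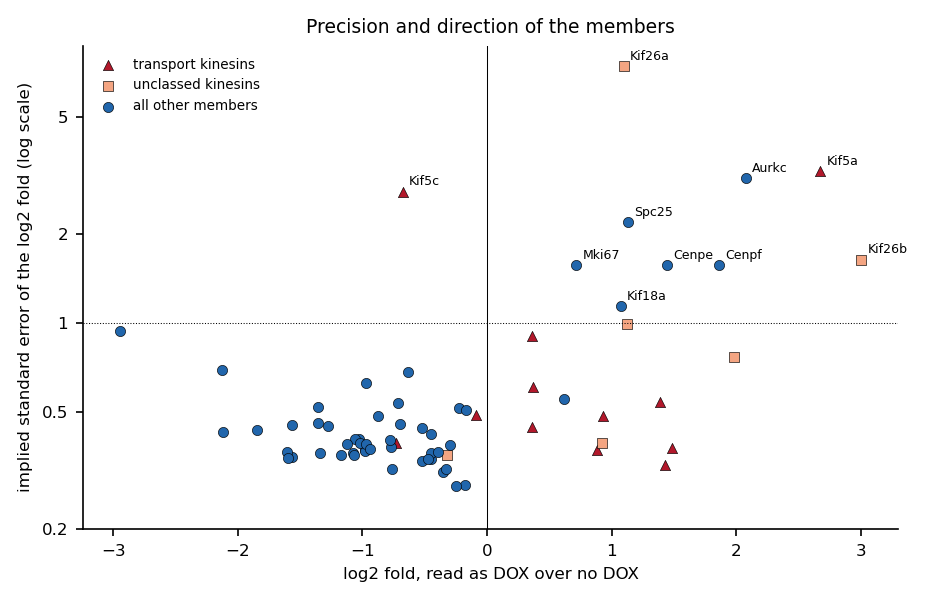
Implied standard error of the log2 fold (y axis, log scale) against the log2 fold in the authors' deposited table (x axis) for the 70 members with such a value. Points are genes, coloured by transport kinesins, unclassed kinesins and all other members, and the dotted line is at 1; the 6 mitotic members over the line all lie to the right of 0, and 45 of the 46 under it to the left.

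The microRNA turned off by DOX pairs with its targets mainly through bases 2 to 8, in capitals in the mature sequence from RefSeq (GRCm38.p6, chr16:84714143-84714165, plus strand).

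mmu-miR-155-5p: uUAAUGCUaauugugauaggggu

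Few members carry a match. A site for that seed (AGCATTA, or GCATTAA) is in the longest annotated 3' UTR of 7 of the 81 members (8.64%) against 13.5% of tested genes with a 3' UTR, and in 0 of the 17 members called. These 3' UTRs have a median of 692 bases in the members and 662 in the called members, against 1140 in tested genes. A shorter 3' UTR has less room for a match, and the part of its length in these shares was not tested. By class, 4 of the 7 are transport or unclassed kinesins, Kif3a, Kif3c, Kif19a and Kif26b, and the others are Kif14, Mad2l1 and Cenpl. The sites of Kif3a, at base 685 of its 3' UTR, of Kif19a, at base 223, of Kif3c, at base 3463, and of Cenpl are shown in 30 bases from GENCODE with the match in capitals. The first 2 are shown since Kif3a and Kif19a have the smallest adjusted p of the 7. Kif3c and Cenpl, at base 1943 of its 3' UTR, are shown as the 2 genes with a match of 8 bases, and Cenpl has a further match of 7.

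Kif3a: acttctcctgaagccAGCATTAgccactta
Kif19a: cccagcctgggacagAGCATTAttgccaaa
Kif3c: tataaatatatataaAGCATTAAcctctgc
Cenpl: tgatggaaagcactaAGCATTAAaaacaaa

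Kif3a and Kif19a missed the threshold with log2 folds of 1.39 and 1.98, and Kif3c had 0.36, in the authors' deposited table. Kif14, Mad2l1 and Cenpl have matches and folds below 1. None of the 15 members that fell and neither of the 2 that rose has a seed match in its annotated 3' UTR.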

How the data were processed

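RNA of 6 tumour samples in 2 groups of 3 was compared. The authors used RSEM and DESeq on build mm9, per the submitters' processing notes, which name no version. The deposited table gives, per the file headers, a fold change, which is a linear ratio, with p-values before and after adjustment by the authors, and no value per sample, group mean or depth. Depth and the precision of single samples are therefore unknown. The planned count test could not be run, and calls are the authors' adjusted p-values under 0.05, which equal a Benjamini-Hochberg adjustment over the 18543 tested rows to within 2.09e-06. The log2 of the deposited ratio was used, and ratios of Inf (2180 tested rows) or 0 (579) got no fold. The members and lists were chosen with earlier results of these data known. Named were every called member, every kinesin, other members within their role group, and up to 4 called genes of each list. Counts, medians and motif searches used Python 3.11.15, pandas 2.3.3, NumPy 2.4.6 and SciPy 1.17.1, and the counting and error functions were tested on simulated data. GENCODE M21 (GRCm38, not mm9) gave transcript length, GC, 3' UTRs and exon overlaps, and RefSeq (GRCm38.p6) the promoters and the microRNA. Exons of 28 members overlap another gene in GENCODE, so their reads could be shared if strand was not used.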

Additional observations from a re-analysis of the deposited data

How the results depend on the processing

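No paired analysis was possible because the deposited table holds no value per sample. Leaving out a replicate, another normalization and a filter on low counts were not run for the same reason. The count of 17 called members (15 lower, 2 higher) became 9 at an adjusted p under 0.01 (7 lower, 2 higher), 27 under 0.1 (23 and 4), 1 under Bonferroni over all tested rows (Cdca7l) and 31 at an unadjusted p under 0.05 (25 and 6), by construction of stricter or looser limits. The count of 3 called mitotic and transport kinesins became 6, 0 and 7 under the last 3 of these, and was 3 at an adjusted p under 0.01. With 1 row per gene, which takes MmKIF17 for Kif17, 18 members and 4 kinesins were called. Of 29 alternatives, 22 stayed within 1.5 times the count, or moved a median by less than the group's median implied standard error. Several of the 22 change few rows or shift each median by the same amount. They had little room to differ, so their number is not a measure of stability. Medians kept their sign throughout: mitotic kinesins from -0.62 (relative to the table) to -0.45, transport kinesins from 0.63 (implied standard error under 1) to 0.91 (unclassed kinesins added). Restricting to finite folds left 75 of the 79 tested members and the same 17 calls, beside 11.2% of all tested rows, and no untested member had a fold to add. The counting of Inf as highest, the older names, the limit on implied standard error and the fit without Kif20a were chosen after seeing the data.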
